A study of Mus musculus with 3 samples.

Results

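Regulatory T cells (Tregs) of the thymus that carry CD73 were compared with CD25+ Treg progenitors (CD25+ TRP) by the T cell receptor (TCR) α chains of single cells and by their summed RNA. The members were chosen by the hashtag of each cell, the authors' cluster number and the count of assembled α chains. CD73+ Treg cells of the authors' cluster 9 (536 cells) were left out, which left 1865 cells against 2503 CD25+ TRP cells. Of these, 823 CD73+ Treg and 1783 CD25+ TRP cells held exactly 1 productive α chain, in all 2606 of the 12208 cells of the series and of its 6982 cells with exactly 1 such chain.

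The thymocytes came from a pool of 8 females of 7 to 12 weeks, from which 6 populations were sorted and each stained with its own hashtag. All mice carried the Tcliβ TCR β chain transgene, 1 intact TCRα allele (TCRα+/-) and the Foxp3-GFP reporter, on a background labelled C56Bl/6. Both populations were sorted from CD8-depleted thymus and gated on Vα2, which the TRAV14 segments encode. There was 1 pool of mice and 1 sorted sample a side, with no replicate, so no difference below was tested. The labels do not give the mouse of origin of a cell.

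Exact Clopper-Pearson 95% intervals follow the shares. They hold the error of counting alone, and clonally related cells are not independent, so that 2 intervals that lie apart describe this pool only. The rows of the expression matrix as used here carry no gene name. The labels CD73+ Treg and CD25+ TRP were therefore not checked against Foxp3, Il2ra or Nt5e, and rest on the sort and the hashtags.

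A TCR α chain is made by joining 1 of many V segments (TRAV) to 1 of many J segments (TRAJ), with bases trimmed from both ends and others added between them. The join forms the CDR3, the loop of the α chain that lies over the peptide in the complex with MHC. One amino acid sequence of the CDR3 can arise from different joins, by other V copies or other added bases. With a fixed β chain, the α chain holds most of the difference in specificity between the T cells of these mice. Treg progenitors with CD25, the α chain of the interleukin-2 receptor, gain Foxp3 to become Tregs. CD73 is an ecto-enzyme that makes adenosine and is carried by mature thymic Tregs, among them cells that have come back from the periphery.

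The sequences below carry the comparison: those of the 5 CDR3 whose intervals lay apart between the populations, with germline segments they were set against, and 2 more frequent shared CDR3. A CDR3 called leading is the one with the most cells for its J segment and is given by its nucleotide sequence. Germline segments are from GENCODE M21 (build GRCm38, all on chromosome 14, plus strand). TRAV14D-3-DV8 lies at chr14:53078452-53079045, TRAJ7 at chr14:54211470-54211528, TRAJ23 at chr14:54196081-54196140, TRAJ13 at chr14:54205741-54205797, TRAJ22 at chr14:54197248-54197307 and TRAJ32 at chr14:54186101-54186166. TRAJ numbers fall from the TRAV side of the locus to the constant gene TRAC at chr14:54220521-54224206. All are written 5′ to 3′, from the cysteine codon that opens the CDR3. Capitals mark bases that match neither the germline V segment read from its cysteine codon nor the germline J segment read from its end.
End of germline TRAV14D-3-DV8: tgtgcagcaagtg
Germline TRAJ7: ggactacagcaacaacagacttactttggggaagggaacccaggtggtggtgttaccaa
CAASADYSNNRLTL, most frequent: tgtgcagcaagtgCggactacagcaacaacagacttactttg
CAASADYSNNRLTL, next: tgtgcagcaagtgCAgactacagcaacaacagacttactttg
CAASAGYSNNRLTL, most frequent: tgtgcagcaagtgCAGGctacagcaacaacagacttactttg
CAASAGYSNNRLTL, next: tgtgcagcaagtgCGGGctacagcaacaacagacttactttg
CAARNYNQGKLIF, most frequent: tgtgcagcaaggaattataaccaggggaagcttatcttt
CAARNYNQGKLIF, next: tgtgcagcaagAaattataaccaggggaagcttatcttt
Leading TRAJ22 CDR3, most frequent: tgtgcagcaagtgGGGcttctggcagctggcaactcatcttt
Leading TRAJ13 CDR3, most frequent: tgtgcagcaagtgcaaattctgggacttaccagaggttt
Leading TRAJ12 CDR3, most frequent: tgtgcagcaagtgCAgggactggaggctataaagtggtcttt
Leading TRAJ32 CDR3, most frequent: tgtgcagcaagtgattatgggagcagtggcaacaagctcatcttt

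The TRAJ7 sequences CAASAGYSNNRLTL and CAASADYSNNRLTL differ in 1 of 14 residues, at position 6 counted from the cysteine. Below they are called the TRAJ7 pair. CAASADYSNNRLTL was reached with 1 to 3 non-germline bases in the CD73+ Treg cells. CAASAGYSNNRLTL needed 4 or 5 in every one of its 95 cells. The leading TRAJ13 CDR3 is the opposite case, since 55 of its 60 CD25+ TRP cells and 3 of its 3 CD73+ Treg cells had no non-germline base.

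The cells behind these values differed in how often a chain was assembled. An α chain was single and productive in 44.1% of CD73+ Treg cells (41.9 to 46.4) and in 71.2% of CD25+ TRP cells (69.4 to 73). No productive α chain was found in 54.2% and 25.6%. Median unique molecular identifiers (UMIs) per cell were 2748 and 3248, and members' α contigs had a median of 19 and 22 UMIs. The TRAV14 family made up 97.9% of the CD73+ Treg chains and 99.1% of the CD25+ TRP chains. Whether cells without a chain carry the same repertoire was not tested.

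J segment usage was compared first. TRAJ7 was used by 138 of 823 CD73+ Treg cells (16.8%, 14.3 to 19.5) and by 80 of 1783 CD25+ TRP cells (4.49%, 3.57 to 5.55). TRAJ32 went the other way, with 12 CD73+ Treg cells (1.46%, 0.756 to 2.53) and 64 CD25+ TRP cells (3.59%, 2.78 to 4.56). These were the segments with intervals apart, 2 of 43 TRAJ segments seen (4.65%). The cells of the TRAJ7 pair stayed in both totals, which lowers the CD73+ Treg share of every other segment more. Without them TRAJ32 was in 12 of 692 and 64 of 1732 cells, and intervals were not computed for these counts. Without the 10 most frequent CDR3, which include the pair and the leading TRAJ32 CDR3, TRAJ32 intervals lay apart (0.663% and 3.11%).

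**Figure D1:**
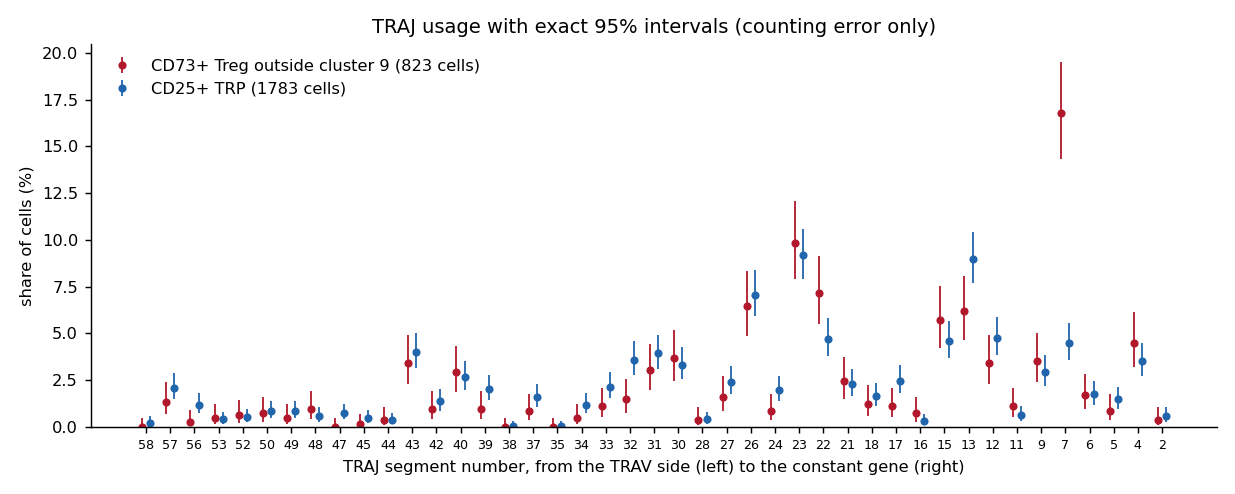
Share of cells using each TRAJ segment (y axis, percent) for the 43 segments in locus order (x axis), in 823 CD73+ Treg cells and 1783 CD25+ TRP cells, with exact 95% intervals as bars. TRAJ7 stands at 16.8% against 4.49% and TRAJ32 at 1.46% against 3.59%, while the intervals of each other segment overlap.

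For the remaining frequent J segments the intervals of both populations overlapped. TRAJ23 followed TRAJ7 in CD73+ Treg with 9.84% (7.89 to 12.1) and was the most used in CD25+ TRP with 9.20% (7.90 to 10.6). TRAJ22 was next in CD73+ Treg with 7.17% (5.50 to 9.15), against 4.71% of CD25+ TRP cells (3.77 to 5.80). TRAJ13 and TRAJ26 came next in CD25+ TRP. For TRAJ13 the shares were 8.97% of CD25+ TRP (7.69 to 10.4) and 6.20% of CD73+ Treg cells (4.65 to 8.07), and for TRAJ26 they were 7.07% and 6.44%.

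By position in the locus, TRAJ2 to TRAJ11, nearest the constant gene, were used by 28.8% of CD73+ Treg cells (25.7 to 32) and 15.3% of CD25+ TRP cells (13.7 to 17.1). Middle segments, TRAJ26 to TRAJ39, were used by 19.9% (17.2 to 22.8) and 27.7% (25.6 to 29.8). Without TRAJ7 the first group was at 12% (99 cells, 9.89 to 14.4) and 10.8% (193 cells, 9.42 to 12.4), with overlapping intervals. TRAJ7 cells stayed in the totals of 823 and 1783 cells, which lowers the CD73+ Treg value more. The same holds for TRAJ26 to TRAJ39. Without the TRAJ7 pair this group was in 164 of 692 and 494 of 1732 cells, and intervals were not computed for these counts. Intervals overlapped for TRAJ12 to TRAJ24 (38.6% and 40.9%) and for TRAJ40 to TRAJ58 (12.6% and 16.1%).

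The TRAJ7 difference lay in the cells of the pair. Counting each different CDR3 once, TRAJ7 made up 8 of 474 CD73+ Treg CDR3 (1.69%, 0.731 to 3.30) and 21 of 1015 CD25+ TRP CDR3 (2.07%, 1.29 to 3.15), lower in CD73+ Treg. No TRAJ segment had intervals apart in this count (0 of 43), and TRAJ32 gave 0.844% and 2.27%. Without the cells of the pair, TRAJ7 was used by 7 of 692 CD73+ Treg cells (1.01%, 0.408 to 2.07) and 29 of 1732 CD25+ TRP cells (1.67%, 1.12 to 2.40). By CDR3 the position groups overlapped too, with 18.6% and 14.6% for TRAJ2 to TRAJ11 and 25.5% and 31% for TRAJ26 to TRAJ39.

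V segments did not separate the populations: 0 of 27 TRAV segments had intervals apart. TRAV14D-3-DV8 was the most used in both, by 32.7% of CD73+ Treg cells (29.5 to 36) and 28.7% of CD25+ TRP cells (26.6 to 30.9). TRAV14-1 (chr14:53554022-53554558) followed with 19% and 20.2%, and TRAV14N-1 (chr14:53166626-53167178) with 12.9% and 13.5%. Chains outside the TRAV14 family were found in 17 CD73+ Treg cells (2.07%, 1.21 to 3.29) and 16 CD25+ TRP cells (0.897%, 0.514 to 1.45). The TRAV14 copies are nearly identical, and their assignment was left as deposited.

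Of 474 different CDR3 in CD73+ Treg and 1015 in CD25+ TRP, 145 were shared. They were 30.6% of the CD73+ Treg CDR3 (26.5 to 35) and 14.3% of the CD25+ TRP CDR3 (12.2 to 16.6). By cells, 471 of 823 CD73+ Treg cells (57.2%, 53.8 to 60.6) and 610 of 1783 CD25+ TRP cells (34.2%, 32 to 36.5) carried one. These shares depend on cell numbers: with 823 cells on each side, 103 shared CDR3 are expected, in 49.2% of CD73+ Treg cells. At equal numbers the CD25+ TRP share stays at 34.2%. Without the TRAJ7 pair the measured shares were 49.1% (340 of 692 cells) and 32.3% (559 of 1732 cells), and 37.6% and 32.3% are expected with 692 cells on each side. Without the 10 most frequent CDR3 they were 41.6% and 24.1%, and 28.1% and 24.1% are expected with 603 cells on each side. At equal cell numbers the gap of 49.2% against 34.2% was smaller in both of these counts. The 10 CDR3 left out were picked by frequency in these same cells, and all were shared. Fewer cells were then drawn, which by itself lowers the CD73+ Treg expectation. The part of cell number and that of the frequent CDR3 were not separated. The expected values have no error over mice.

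Most shared CDR3 were small. There were 44 with 1 cell on each side and 53 with at least 2 cells on each side, and the median was 1 CD73+ Treg cell and 2 CD25+ TRP cells. A higher share of CD73+ Treg than of CD25+ TRP cells was seen for 110 of the 145, where 1 CD73+ Treg cell already weighs as much as 2 CD25+ TRP cells.

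**Figure D2:**
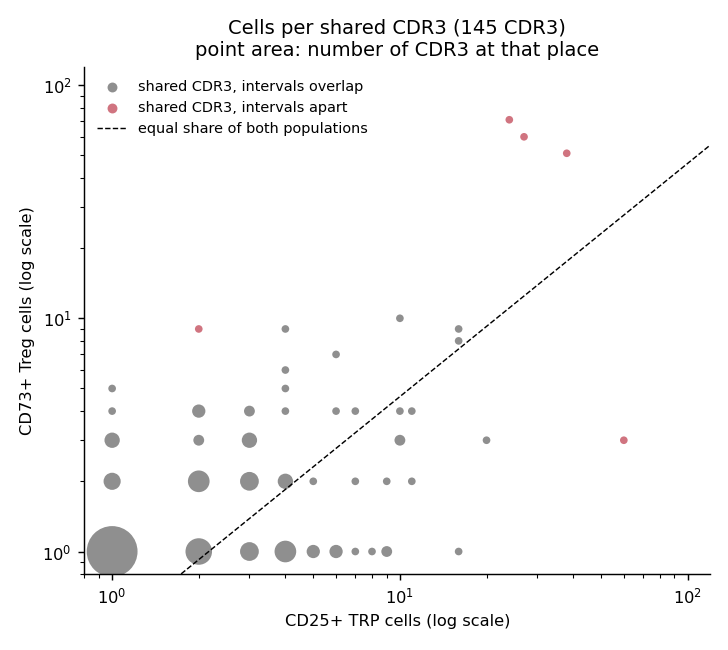
Cells per shared CDR3 in CD25+ TRP (x axis) and CD73+ Treg (y axis), both on log scales, where the point area gives the number of CDR3 at that place and the dashed line an equal share of both populations. Red points are the 5 CDR3 with intervals apart, 4 above the line and 1 below it, and the largest grey point holds the 44 CDR3 with 1 cell on each side.

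Intervals lay apart for 5 of the 1344 different CDR3 (0.372%). Most of the 1344 had too few cells for intervals to lie apart. The largest private CDR3 had 3 cells in CD73+ Treg and 13 in CD25+ TRP, and intervals overlapped even there. CAASAGYSNNRLTL was carried by 71 CD73+ Treg cells (8.63%, 6.80 to 10.8) and 24 CD25+ TRP cells (1.35%, 0.864 to 2). Its partner CAASADYSNNRLTL was carried by 60 (7.29%, 5.61 to 9.28) and 27 (1.51%, 1 to 2.20). Together the pair made up 15.9% of CD73+ Treg cells (13.5 to 18.6) and 2.86% of CD25+ TRP cells (2.14 to 3.74).

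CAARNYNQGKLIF, joined to TRAJ23, was frequent on both sides, in 51 CD73+ Treg cells (6.20%, 4.65 to 8.07) and 38 CD25+ TRP cells (2.13%, 1.51 to 2.91). The leading TRAJ22 CDR3 was rare in both, in 9 (1.09%, 0.501 to 2.07) and 2 cells (0.112%, 0.0136 to 0.405). The leading TRAJ13 CDR3 was the only one of the 5 that was lower in CD73+ Treg, with 3 cells (0.365%, 0.0752 to 1.06) against 60 (3.37%, 2.58 to 4.31).

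The other shared CDR3 among the 10 with the most cells had overlapping intervals. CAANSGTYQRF was found in 9 CD73+ Treg and 16 CD25+ TRP cells, the leading TRAJ32 CDR3 in 8 and 16, and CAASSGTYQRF in 10 and 10. The leading TRAJ12 CDR3 was found in 3 and 20, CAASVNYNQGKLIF in 1 and 16, and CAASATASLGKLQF in 4 and 11. TRAJ13 thus gave 3 of these 10 CDR3, and its leading one alone had intervals apart.

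Private CDR3 were mostly single cells, more so in CD73+ Treg. The 329 CDR3 found in CD73+ Treg and not in CD25+ TRP held 352 cells, and 93.9% of them were in 1 cell (90.8 to 96.2). The 870 found in CD25+ TRP and not in CD73+ Treg held 1173 cells, and 81.8% were in 1 cell (79.1 to 84.3). The largest private CDR3 of CD73+ Treg had 3 cells each: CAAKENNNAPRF (TRAJ43), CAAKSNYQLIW (TRAJ33) and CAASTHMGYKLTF (TRAJ9). Those of CD25+ TRP were larger: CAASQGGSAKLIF (TRAJ57, 13 cells), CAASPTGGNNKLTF (TRAJ56, 11 cells) and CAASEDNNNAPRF (TRAJ43, 10 cells). For each of these 3 the count was 0 of 823 in CD73+ Treg, with an exact interval up to 0.447%, and none of the 3 had intervals apart.

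The private sequences were looked for in the 4 other populations. Of the private CDR3 of CD25+ TRP, 24.9% (22.1 to 28) were also found in CD4 SP cells (CD4+ thymocytes that lack CD25, Foxp3 and CD73), against 6.99% (4.48 to 10.3) of those private to CD73+ Treg. The shares in Foxp3lo TRP, progenitors with low Foxp3, were 14.4% (12.1 to 16.9) and 5.78% (3.51 to 8.87). Intervals overlapped for CD4+CD8+ cells (DP), with 13.7% (11.5 to 16.1) and 10% (7.01 to 13.8), and for CD73- Treg, with 4.37% (3.11 to 5.95) and 2.43% (1.06 to 4.73). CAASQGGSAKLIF was in 33 CD4 SP cells, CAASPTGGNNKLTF in 17 and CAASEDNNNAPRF in 13. The private CDR3 of CD73+ Treg were found in none of the 4 other populations in 80.2% of cases (75.5 to 84.4), those of CD25+ TRP in 61.8% (58.5 to 65.1). Shared CDR3 were the most widespread: 52.4% (44 to 60.8) were also in CD4 SP and 47.6% (39.2 to 56) in Foxp3lo TRP. More cells per CDR3 make a find elsewhere more likely, and CD4 SP (1849 cells) was sampled more deeply than Foxp3lo TRP (804) and CD73- Treg (223).

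The TRAJ7 pair and the leading TRAJ13 CDR3 differed here as well. In CD4 SP, 0 of 1849 cells carried the pair, and 113 carried the leading TRAJ13 CDR3. In Foxp3lo TRP, 1 cell carried CAASAGYSNNRLTL, 7 carried CAASADYSNNRLTL and 38 the leading TRAJ13 CDR3. In CD73- Treg the pair was in 10 of 223 cells (4.48%, 2.17 to 8.09), and in DP in 3 of 1266 (0.237%, 0.0489 to 0.691). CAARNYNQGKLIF was in 18 CD4 SP (0.973%), 25 Foxp3lo TRP (3.11%), 5 CD73- Treg (2.24%, 0.732 to 5.15) and 1 DP cell.

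To set CD25+ TRP beside the other populations, shared CDR3 with CD73+ Treg were computed for equal cell numbers. With 804 cells on each side, 101 were expected with CD25+ TRP, 86.9 with Foxp3lo TRP, 67.5 with CD4 SP and 62.3 with DP. The share of CD73+ Treg cells carrying them was 48.9% with CD25+ TRP, 43.4% with Foxp3lo TRP, 23% with CD4 SP and 30.1% with DP. By CDR3 nucleotide sequence with V and J segment, 64.4 were expected with CD25+ TRP, 50.2 with Foxp3lo TRP, 28.7 with CD4 SP and 17 with DP. With 223 cells, the number of CD73- Treg, the expected number of CDR3 was 23.5 with CD25+ TRP and also 23.5 with CD73- Treg. By nucleotide sequence with V and J segment these were 13.6 and 16.7. These are expected values over draws of cells, with no error over mice, and the differences were not tested. In the CD73+ Treg cells of cluster 9, 18.8% of 234 cells (14 to 24.4) had a CDR3 of CD25+ TRP.

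A rearrangement is taken here as a CDR3 nucleotide sequence with its V and J segment, so that 1 CDR3 can hold several. CD73+ Treg had 595 and CD25+ TRP 1364, and 100 were on both sides. They were carried by 35% of CD73+ Treg cells (31.7 to 38.4) and 16.7% of CD25+ TRP cells (15 to 18.5). Of the 145 shared CDR3, 75 had at least 1 rearrangement on both sides and 70 had none. By nucleotide sequence without the V copy, 101 were shared. Some of the 70 thus had the same nucleotide sequence on both sides under another V copy, and the rest were shared as amino acids only. Since all mice were pooled, cells of 1 rearrangement from 1 mouse or from several cannot be told apart.

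Shared CDR3 held 3.18 rearrangements on average (median 3, maximum 16), and 127 of 145 (87.6%, 81.1 to 92.5) held more than 1. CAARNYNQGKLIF had the most, 16, in 12 nucleotide sequences and 3 V copies. It had 13 in CD73+ Treg, 8 in CD25+ TRP and 5 on both sides. The leading TRAJ12 CDR3 followed with 9, of which 2 were in CD73+ Treg, 9 in CD25+ TRP and 2 on both sides. CAASAGYSNNRLTL and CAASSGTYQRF had 8 each. All 8 of CAASAGYSNNRLTL used TRAV14D-3-DV8, with 7 in CD73+ Treg, 6 in CD25+ TRP and 5 on both sides.

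Several joins led to each of the large CDR3, and none of them rested on 1 rearrangement. The largest rearrangement of CAASAGYSNNRLTL held 30 of its 71 CD73+ Treg cells and 9 of its 24 CD25+ TRP cells. CAASADYSNNRLTL had 6 rearrangements in all, the largest with 31 of 60 and 13 of 27 cells. For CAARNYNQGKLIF the all-germline join printed above, summed over its V copies, was found in 31 of 51 and 31 of 38 cells. It was found in 10 nucleotide sequences in CD73+ Treg and 6 in CD25+ TRP.

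The number of rearrangements followed the number of cells. Among CDR3 with 2 cells, 72.7% of the shared ones had 2 rearrangements (57.2 to 85), as did 71.3% of those private to CD25+ TRP (61.4 to 79.9) and 58.8% of those private to CD73+ Treg (32.9 to 81.6). With 6 to 10 cells the means were 3.57 for 30 shared CDR3 and 4 for 12 private to CD25+ TRP. With 11 or more cells the mean was 6.79 for 19 shared CDR3 (5 to 16) and 3 for the 2 private to CD25+ TRP. Cell numbers were not alike there, since the 2 private CDR3 had 11 and 13 cells and the shared ones reached 95. From 4 cells up nearly all CDR3 had more than 1 rearrangement, so that the share with more than 1 cannot tell shared from private CDR3 there.

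**Figure D3:**
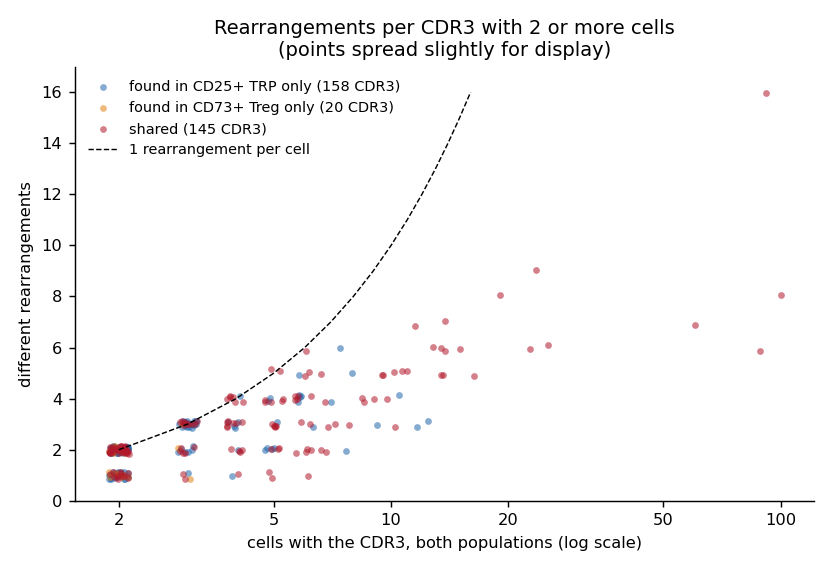
Different rearrangements per CDR3 (y axis) against the cells that carry it in both populations (x axis, log scale) for CDR3 with 2 or more cells: 145 shared, 20 found in CD73+ Treg only and 158 found in CD25+ TRP only. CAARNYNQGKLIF stands highest with 16 rearrangements in 89 cells, above the TRAJ7 pair with 8 in 95 cells and 6 in 87.

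The shared CDR3 were closer to germline than the private ones. At most 2 non-germline bases were found in 57.3% of the 461 rearrangements of shared CDR3 (52.6 to 61.8). The values were 33.6% of the 342 private to CD73+ Treg (28.6 to 38.9) and 32.6% of the 1056 private to CD25+ TRP (29.8 to 35.5). At least 6 were found in 1.52% of the shared (0.613 to 3.10), 20.2% of the CD73+ Treg private (16.1 to 24.8) and 14.1% of the CD25+ TRP private rearrangements (12.1 to 16.4). The median was 2, 4 and 3.

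A gap was also seen among rare sequences, where cell numbers were not alike. CDR3 with 1 cell on each side had at most 2 non-germline bases in 58% of 88 cells (47 to 68.4). The values were 31.1% of 309 cells with a CDR3 seen once and only in CD73+ Treg (25.9 to 36.6), and 27% of 712 such cells of CD25+ TRP (23.7 to 30.4). These shared CDR3 have 2 cells in all and these private ones 1. With private CDR3 of any cell number, 33.8% of CD73+ Treg and 35.8% of CD25+ TRP cells were at 2 or fewer. The part of cell number in the gap was not tested. In non-germline bases the populations as wholes were alike, with 41.8% of all CD73+ Treg rearrangements (37.8 to 45.9) and 39.4% of all CD25+ TRP rearrangements (36.8 to 42.1) at 2 or fewer.

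**Figure D4:**
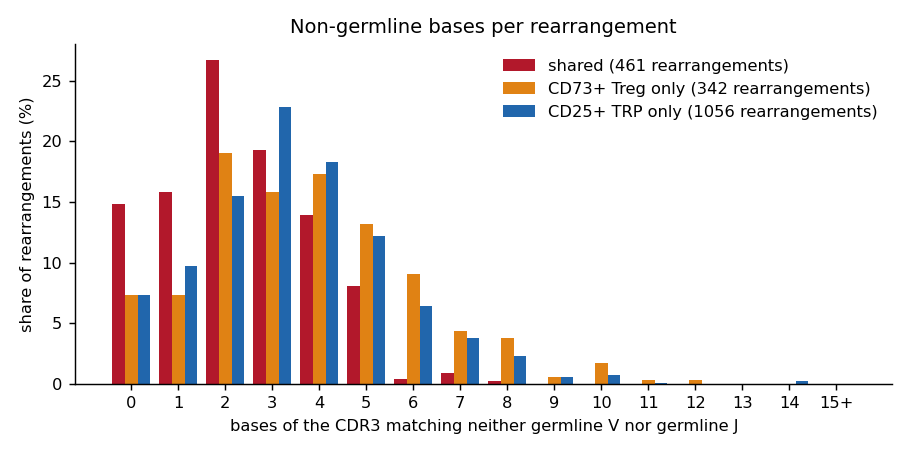
Bases of the CDR3 that match neither germline segment (x axis) against the share of rearrangements (y axis, percent) for 461 rearrangements of shared CDR3, 342 found in CD73+ Treg only and 1056 found in CD25+ TRP only. The shared bars lead at 0, 1 and 2 bases, which together hold 57.3%, against 33.6% and 32.6% of the private rearrangements.

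Length and the residue at position 4 were compared in the same way. A CDR3 of 13 or 14 residues was found in 74.8% of shared rearrangements (70.6 to 78.7), 57.6% of the CD73+ Treg private (52.2 to 62.9) and 59.9% of the CD25+ TRP private (56.9 to 62.9). Serine at position 4, which the end of the germline TRAV14D-3-DV8 printed above encodes, was kept in 69.4% (65 to 73.6), 47.7% (42.3 to 53.1) and 63.2% (60.2 to 66.1). For serine the shared and the CD25+ TRP private intervals overlapped, while those of the private sequences of the 2 populations lay apart, with fewer serines in CD73+ Treg. Among sequences with 1 cell a side, all these intervals overlapped. A length of 13 or 14 was then found in 65.9% of shared (55 to 75.7), 57.9% of CD73+ Treg private (52.2 to 63.5) and 56.7% of CD25+ TRP private cells (53 to 60.4). Serine was found in 61.4% (50.4 to 71.6), 48.5% (42.8 to 54.3) and 56.6% (52.9 to 60.3). Over all rearrangements, serine was at 55.1% in CD73+ Treg (51 to 59.2) and 65.2% in CD25+ TRP (62.6 to 67.7), with intervals apart. A length of 13 or 14 was at 64.9% (60.9 to 68.7) and 63.3% (60.7 to 65.9), with overlapping intervals.

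The authors' clusters of CD25+ TRP cells differed in which shared CDR3 they held. Clusters are kept by number here, since the matrix rows have no names. In CD25+ TRP, the TRAJ7 pair was found in 40 of 810 cells of clusters 5 and 7 (4.94%, 3.55 to 6.66). In clusters 0, 1 and 2 it was found in 0 of 707 cells, with an exact interval up to 0.520%. The leading TRAJ13 CDR3 was distributed the other way, in 8 of 810 cells (0.988%, 0.427 to 1.94) and 39 of 707 (5.52%, 3.95 to 7.46). Clusters 0, 1 and 2 were put together after these values were seen. Median UMIs per member cell were 3859.5 in clusters 5 and 7 and 2675 in clusters 0, 1 and 2, and the part of depth in this split was not tested. Whether transcripts of V and J segments were among the genes behind the clusters is not given in the sources used here.

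In CD73+ Treg the pair was also unevenly spread. It made up 40 of 114 cells in cluster 7 (35.1%, 26.4 to 44.6), 67 of 368 in cluster 3 (18.2%, 14.4 to 22.5), 6 of 47 in cluster 5 (12.8%, 4.83 to 25.7) and 6 of 144 in clusters 0, 1 and 2 (4.17%, 1.54 to 8.85). The high share was thus in cluster 7 and not in cluster 5. In CD25+ TRP the pair was in 5.88% of cluster 7 cells (3.68 to 8.85) and 4.19% of cluster 5 cells (2.54 to 6.47). Median UMIs per CD73+ Treg member cell were 4440 in clusters 5 and 7, 2929 in cluster 3 and 2399 in clusters 0, 1 and 2, and the part of depth was not tested. Cluster 3 held 45.4% of CD73+ Treg cells with a shared CDR3 (40.9 to 50.1) and 43.8% of those with a private one (38.5 to 49.1), so that sharing did not move with the main CD73+ Treg cluster.

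Over all shared CDR3, 51% of the CD25+ TRP cells that carried one lay in clusters 5 and 7 (46.9 to 55), against 42.5% of those with a private CDR3 (39.7 to 45.4). Counting each CDR3 once per cluster, the values were 45.8% and 43.6%, with overlapping intervals. Counted by cells, the excess lay with those whose whole rearrangement was also found in CD73+ Treg: 61.7% of these 298 cells were in clusters 5 and 7 (56 to 67.3). These cells held 100 rearrangements, the largest in 26 cells, and a count of each rearrangement once per cluster was not made. Cells with a shared CDR3 but a rearrangement on 1 side only were at 40.7% of 312 (35.2 to 46.4), within the interval of the private ones. Leaving out the TRAJ7 pair, a choice made after seeing the data, cells with a rearrangement on both sides were at 58.5% of 248 (52.1 to 64.7).

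Summed expression set the RNA of the populations side by side, without gene names. UMIs were summed over the 1865 and 2503 cells (5996798 and 9574318 UMIs) and scaled to equal totals as CPM. At 50 CPM or more on either side, 3053 gene rows were kept. Of these, 165 (5.40%) differed by 2-fold or more on log2(CPM + 1), 110 higher (3.60%) and 55 lower (1.80%) in CD73+ Treg. The root mean square of the log2 ratios was 0.59, and counting error alone gives 0.08. It is raised by the rows with large ratios: 73.1% of rows were below 0.5 in size, and the 25th to 75th percentile ran from -0.41 to 0.1. The median log2 ratio was -0.17, the lowest -3.03 and the highest 5.39. Higher rows were 66.7% of the 165. With median-of-ratios scaling, which moves the median ratio to -0.04, they were 144 against 42 lower, or 77.4%, and with trimmed-mean scaling 140 against 43, or 76.5%. A lower filter brought the share down, to 61.8% at 20 CPM (201 against 124) and 52.2% without a filter (533 against 488), and it was 61.5% without the 5% of cells with the most UMIs.

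**Figure D5:**
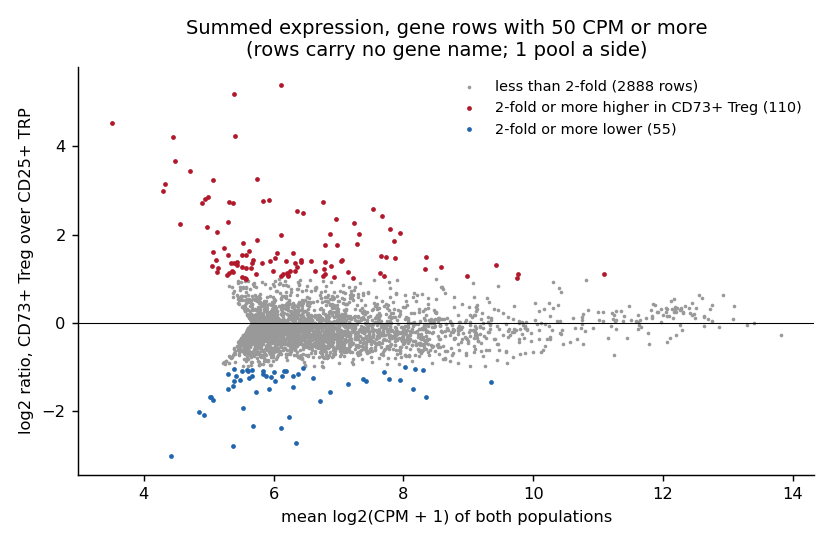
Log2 ratio of summed expression, CD73+ Treg over CD25+ TRP (y axis), against the mean log2(CPM + 1) of both (x axis), 1 point for each gene row kept. Red marks the 110 rows at least 2-fold higher in CD73+ Treg and blue the 55 at least 2-fold lower, and the tail reaches further upward (5.39) than downward (-3.03).

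The RNA of cells with a shared CDR3 differed between the populations about as much as that of cells with a private one. Among cells with a shared CDR3, 156 of 3017 rows (5.17%) differed by 2-fold or more, and among those with a private CDR3 156 of 3088 (5.05%). Within a population, sharing went with little: 7 of 2875 rows (0.243%) differed by 2-fold between CD73+ Treg cells with a shared and with a private CDR3, and 4 of 2948 (0.136%) in CD25+ TRP. The root mean square was 0.25 in CD73+ Treg, with 0.18 from counting error alone, and 0.18 in CD25+ TRP, with 0.12. These differences within a population were smaller than the 0.59 between the populations.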

How the data were processed

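The 3 GEO samples are the gene expression, hashtag and TCRα-enriched libraries of 1 pool, made with a 10x Genomics 5′ kit per the labels' protocols. The submitters' processing notes name Seurat 3.1.1 and Cell Ranger 3.1.0, and as builds GRCm38 and mm10, without their roles. How cells were filtered and doublets handled is not given in the sources used here, and no doublet caller was run. Of 2 deposited matrices, 1 has the authors' UMI counts, and the other has the authors' natural log values, used only as an alternative. The authors' metadata, without barcodes, were joined to the matrix by row order, and the clonotype then matched for 6982 of 6982 cells. Of 12771 barcodes in the deposited contig table, 7379 were in the matrix. The hashtag class named Treg was read as CD73- Treg.

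Shared means found in at least 1 cell of both populations. Germline matches used GENCODE M21, in which all 43 TRAJ and 27 TRAV segments were found. Palindromic bases count as non-germline, and an added base that equals germline counts as germline. Equal-depth values are exact expectations. Segments and CDR3 named are those with intervals apart and the most used (3 segments a population, 10 shared and 3 private CDR3 a side, and the 3 with most rearrangements). The planned rules for named genes and cell type markers could not be applied to rows without names. Members, lists and rules were chosen with earlier results of these data known. Scripts (Python 3.11.15, numpy 2.4.6, pandas 2.3.3, scipy 1.17.1) were tested on simulated data. With 1 pool and clonally related cells, intervals and floors (3 counts) cover counting error only. Alternatives are in the closing section.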

Additional observations from a re-analysis of the deposited data

Results flagged for a closer look

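Cells with 2 productive α contigs were left out of the comparisons by the choice of members, and are given here as values only. They are above the share that a count of 0 allows, which any count over 3 would be. In CD73+ Treg outside cluster 9 they were 31 of 1865 cells (1.66%, 1.13 to 2.35, with 0.161% allowed by 0), and in CD25+ TRP 79 of 2503 (3.16%, 2.51 to 3.92, with 0.120% allowed by 0). Their median UMIs per cell were 6587 and 6504, against 2984 and 3218 in cells with 1 chain. Of their chains, 25 of 62 in CD73+ Treg (40.3%) and 35 of 158 in CD25+ TRP (22.2%) had one of the 145 shared CDR3. Droplets with 2 cells were not called, and their part was not tested.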

How the results depend on the processing

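No paired analysis was possible because there was 1 pool and no replicate. Of 94 alternatives computed, 74 kept a value within its interval, a count or share within 1.5 times, or a call with its direction. Another 14 moved a value beyond its interval or a count beyond 1.5 times, 4 ended a call and 2 turned a direction. Those with at least 2 UMIs per contig are among the 74 and could change nothing, because no member contig had fewer. The difference of TRAJ7 (12.3 percentage points) was -0.381 with each CDR3 counted once and -0.716 without the 10 most frequent CDR3, where TRAJ22 (9.78% against 5.44%) lay apart in its place. It was 0.722 with each rearrangement counted once. TRAJ segments with intervals apart fell from 2 to 0 in both once-only counts. With cluster 9 included, 2 TRAV segments lay apart (TRAV14D-2 at 1.14% of CD73+ Treg against 2.86%, TRAV14N-2 at 6.34% against 9.37%), TRAJ13 was added to the TRAJ segments, and 48.7% of CD73+ Treg cells had a shared CDR3.

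The share of cells with a shared CDR3 moved with the definition. It was 42.8% in CD73+ Treg and 24.2% in CD25+ TRP by nucleotide sequence, 35% and 16.7% with V and J segment, 49.2% in CD73+ Treg at equal cell numbers, and 43.6% and 22.4% for the 53 CDR3 with at least 2 cells on each side. Counted by cells, at most 2 non-germline bases were found in 67.3% of shared and 35.8% of CD25+ TRP private sequences. The difference of 8.44 percentage points in clusters 5 and 7 was 2.20 with each CDR3 counted once per cluster. By summed expression, each scaling, filter and prior tried left the share of rows past 2-fold within 1.5 times of 5.40%. The number of α chains in CD73+ Treg limits every share, and 1 pool limits all of them.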
